A study of Mus musculus with 9 samples.

Results

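The nuclear genes of the mitochondrial respiratory chain were taken as all protein-coding genes outside the mitochondrial chromosome whose symbol starts with Nduf, Uqcr, Atp5 or Cox followed by 4 to 8, together with *Sdha*, *Sdhb*, *Sdhc* and *Sdhd*. This rule on symbols, which uses no binding value, gave 92 gene records with 91 different symbols, of 22367 nuclear protein-coding genes in GENCODE release M1. They lie on 19 chromosomes. BAP1 binding was mapped by ChIP-Seq in Ba/F3, a mouse cell line of the B cell precursor stage that depends on IL-3 and was grown with conditioned medium as the source of that cytokine. The list of binding sites comes from 2 immunoprecipitations together, an anti-BAP1 antibody on wild type cells and an anti-FLAG antibody on cells stably expressing BAP1 with a triple FLAG tag and kept in puromycin. Each was done once, so there is no replicate error. The series has 9 samples, and its H2AK119ub and input libraries were not analysed here. The list has 13164 peaks of 200 bp on mouse build mm9, with no height, no p-value and no record of which antibody found a peak, and its sequencing depth is unknown. A gene was scored as having a peak when the middle of a peak lay within 1 kb of any of its annotated transcription start sites (TSSs). Intervals are 95% Wilson intervals and cover counting error only.

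Complexes I to IV of the respiratory chain carry electrons from NADH and succinate to oxygen and, except for complex II, move protons across the inner mitochondrial membrane, and complex V, the ATP synthase, uses that gradient to make ATP. Most of their subunits are encoded in the nucleus, where NRF1, the ETS factor GABP and YY1 are known regulators of such genes. BAP1 is a nuclear deubiquitinase that removes ubiquitin from histone H2A and acts at chromatin in complexes with proteins that bind DNA or other chromatin factors.

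BAP1 peaks lay at the start sites of most nuclear respiratory chain genes. Of the 92 records, 77 had a gene-proximal peak, or 83.7% (interval 74.8 to 89.9), where 39.6% of all nuclear protein-coding genes did (8850 of 22367, interval 38.9 to 40.2). The peaks sat on the start sites themselves. In 71 of the 77, the middle of the nearest peak was within 100 bp of a TSS, and in 6 it was between 100 bp and 1 kb away. The 15 records with no gene-proximal peak were 7 of 8 tissue-restricted subunit isoforms, all 3 X-linked members and 5 others. Their nearest peaks were 2619 to 619965 bp away, with a median of 28389 bp, so that few members were near the edge of the window. *Ndufa13* was the only member with its nearest peak between 500 bp and 1 kb, and a second record of *Ndufb8* the only one between 1 and 5 kb.

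**Figure D1:**
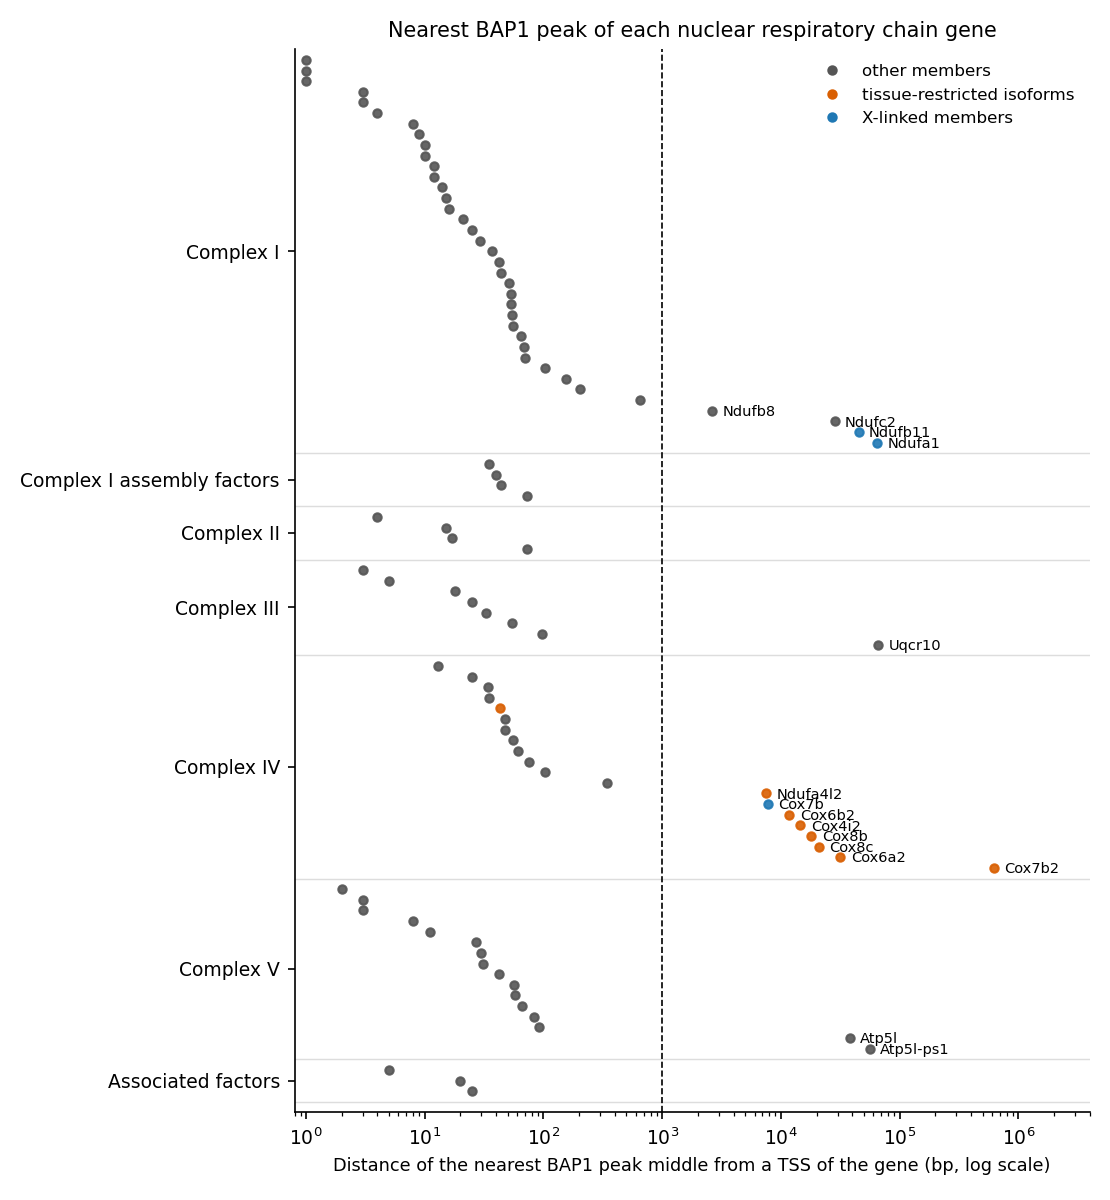
Distance in bp, on a log scale, from a TSS of each of the 92 gene records to the middle of the nearest BAP1 peak, with 1 point per record, sorted by distance within each complex, and the dashed line at 1 kb. The points left of the line lie mostly below 100 bp, and the labelled points to its right are the 15 records without a gene-proximal peak.

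Complex I, the NADH dehydrogenase through which electrons enter the chain, had a peak at 33 of 37 records, or 89.2% (interval 75.3 to 95.7). The peak middles of *Ndufa7*, *Ndufb3* and *Ndufs6* were 1 bp from a TSS. Among the conserved core subunits, the nearest peak was at -12 bp for *Ndufv1*, -68 bp for *Ndufv2*, -204 bp for *Ndufs1*, -9 bp for *Ndufs3*, -51 bp for *Ndufs7* and -155 bp for *Ndufs8*, where negative positions are upstream in the direction of the gene. *Ndufv1* and *Ndufv2* form, with *Ndufs1*, the arm that oxidizes NADH. *Ndufs4* and *Ndufs6*, accessory subunits of the same arm, had peaks at 10 and -1 bp. The 4 records without a peak were *Ndufa1*, *Ndufb11*, *Ndufc2* and the second record of *Ndufb8*. All 4 genes named as complex I assembly factors, *Ndufaf1* to *Ndufaf4*, which help build the complex and are absent from the finished enzyme, had a peak, at -35, -40, -73 and -44 bp.

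Complex II, succinate dehydrogenase, joins the citric acid cycle to the chain, and it is the complex with all of its subunits encoded in the nucleus. All 4 subunit genes had a peak, a share whose interval runs from 51.0 to 100%. The nearest peaks were at -15 bp for *Sdha*, the flavoprotein, at 73 bp for *Sdhb*, the iron-sulfur subunit, and at -4 and -17 bp for the membrane anchors *Sdhc* and *Sdhd*. *Sdhc* also had a peak at 116 bp.

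Complex III, the cytochrome bc1 complex, had a peak at 7 of 8 genes, or 87.5% (interval 52.9 to 97.8). Taking only the nearest peak of each gene, the closest was 3 bp from the TSS, at *Uqcr11*, and the farthest was at -98 bp, at *Uqcrq*. *Uqcrfs1*, the Rieske iron-sulfur protein, had its peak at 54 bp, and the core proteins *Uqcrc1* and *Uqcrc2* at -18 and -25 bp. Only *Uqcr10*, a small subunit of the complex, had none within 1 kb. *Cyc1*, the cytochrome c1 subunit, carries another prefix and was not counted among the members. It had a peak at -5 bp.

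Complex V had a peak at 14 of 16 records, or 87.5% (interval 64.0 to 96.5). All 5 subunits of the catalytic F1 head had one, with the nearest at 3 bp for *Atp5a1*, 8 bp for *Atp5b*, 11 bp for *Atp5c1*, -2 bp for *Atp5d* and -83 bp for *Atp5e*. The 3 genes that encode the same ring-forming c subunit, *Atp5g1*, *Atp5g2* and *Atp5g3*, had peaks at -42, -91 and -30 bp. The records without a peak were *Atp5l*, the g subunit, and *Atp5l-ps1*, which is named as a pseudogene and annotated as protein-coding, so that 14 of 15 (93.3%) remained when it was left out. *Atp5s* and *Atp5sl*, related to the ATP synthase or named after it, and *Cox7a2l*, which links complexes III and IV in supercomplexes, all had a peak, at -5, -20 and 25 bp.

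**Figure D2:**
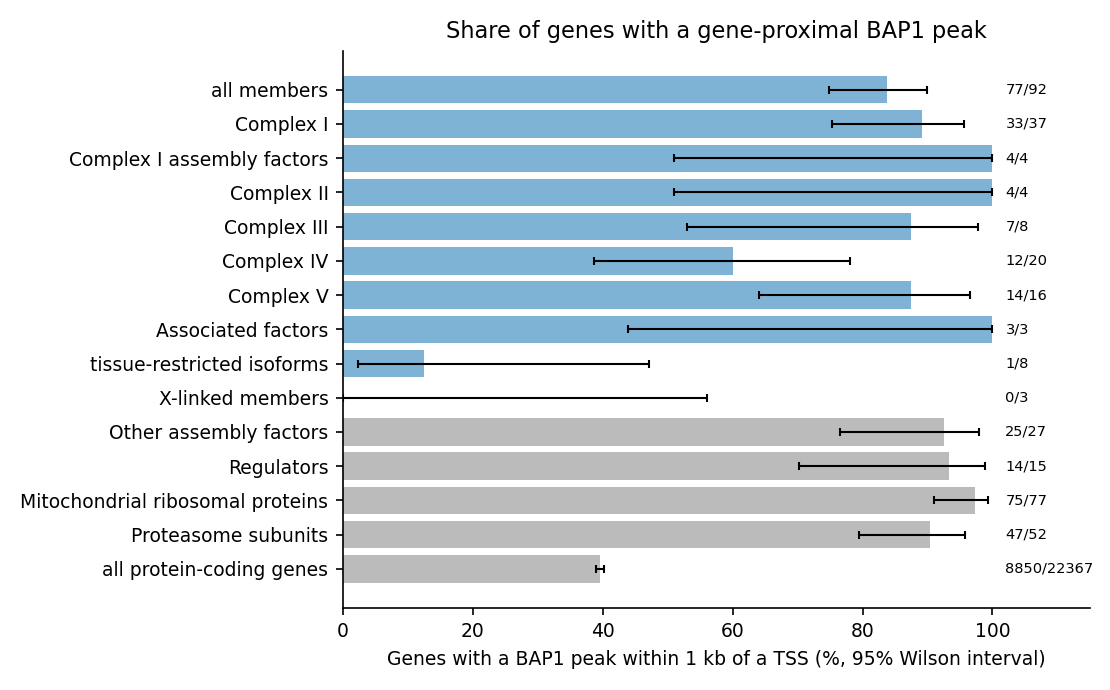
Share of genes with a peak middle within 1 kb of a TSS, in percent, for the members by complex (blue bars) and for comparison sets (grey bars), with 95% Wilson intervals and the counts at the right. Complex IV, at 60.0%, is the lowest complex. The tissue-restricted isoforms and X-linked members, at 12.5% and 0%, are few, and their intervals hold the 39.6% of all protein-coding genes.

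Complex IV, cytochrome c oxidase, passes electrons to oxygen, and it had the lowest share, with a peak at 12 of 20 records, or 60.0% (interval 38.7 to 78.1). Its nearest peak was that of *Cox5b* at -13 bp. Its interval overlapped that of complex I and no test of the difference was made. Complex IV is also the complex whose members include subunit isoforms that are expressed mainly in heart and skeletal muscle, lung or testis. Of the 8 members fixed as tissue-restricted, all of complex IV when *Ndufa4* and its paralog *Ndufa4l2* are counted there, 1 had a peak (12.5%, interval 2.24 to 47.1). That interval holds the 39.6% of all protein-coding genes. Without these 8 and without *Cox4nb*, 10 of 11 complex IV genes (90.9%, interval 62.3 to 98.4) had a peak. *Cox4nb* was caught by its prefix alone: it encodes no subunit, and it shares with *Cox4i1* the only peak that belongs to more than 1 member. Over all complexes, 76 of 84 members (90.5%, interval 82.3 to 95.1) had a peak when the tissue-restricted isoforms were left out.

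The isoform pairs show this gene by gene. *Cox4i1* had a peak at -75 bp, and the nearest peak to *Cox4i2*, its lung form, was 14635 bp away. *Cox6a1* had a peak at 25 bp, and *Cox6a2*, its heart and skeletal muscle form, had its nearest at 31664 bp. For *Cox6b1* and *Cox6b2*, the latter the testis form, the distances were 55 and 11775 bp. *Cox8a* had peaks at -47 and 79 bp, whereas the nearest peaks to *Cox8b*, the heart and skeletal muscle form, and to *Cox8c*, the testis form, were 18073 and 20779 bp away. *Ndufa4* had its peak at -342 bp, only 21 bp from the TSS of its divergent neighbor *Phf14*, and the nearest peak to *Ndufa4l2*, at 7496 bp, lay on the TSS of *Shmt2*. In these 5 families the general form had a peak and each restricted form did not. The other 2 pairs differed. *Cox7a1*, the heart and skeletal muscle form, had a peak at -43 bp, as did its general form *Cox7a2* at 35 bp. *Cox7b*, on the X chromosome, had no peak within 7779 bp, nor did its testis form *Cox7b2* within 619965 bp. The mobile carrier cytochrome c, outside the members, followed the pattern of the 5 families, with a peak at -94 bp for the somatic *Cycs* and none within 9508 bp for the testis form *Cyct*.

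The sequences before the start sites of 3 isoform pairs are printed to show how they differ in CpG dinucleotides, which are in capitals. Each is the 200 bases of mm9 directly upstream of the outermost TSS, in the direction of the gene and with no annotated exon in it. The general forms *Cox6a1*, *Cox8a* and *Cox7a2* held 20, 11 and 12 CpGs, and the restricted forms *Cox6a2*, *Cox8b* and *Cox7a1* held 1, 1 and 4. The few CpGs before *Cox7a1* did not go with the absence of a peak.
Cox6a1, chr5:115798991-115799190, minus strand: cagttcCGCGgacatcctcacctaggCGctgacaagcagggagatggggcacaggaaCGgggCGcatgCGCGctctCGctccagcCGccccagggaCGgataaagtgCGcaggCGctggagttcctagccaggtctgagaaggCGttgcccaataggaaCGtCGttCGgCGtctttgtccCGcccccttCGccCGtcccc
Cox6a2, chr7:135349881-135350080, minus strand: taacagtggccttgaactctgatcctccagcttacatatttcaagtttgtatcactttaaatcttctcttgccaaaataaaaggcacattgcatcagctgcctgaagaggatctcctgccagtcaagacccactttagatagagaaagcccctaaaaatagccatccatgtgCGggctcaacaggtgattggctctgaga
Cox8a, chr19:7292107-7292306, minus strand: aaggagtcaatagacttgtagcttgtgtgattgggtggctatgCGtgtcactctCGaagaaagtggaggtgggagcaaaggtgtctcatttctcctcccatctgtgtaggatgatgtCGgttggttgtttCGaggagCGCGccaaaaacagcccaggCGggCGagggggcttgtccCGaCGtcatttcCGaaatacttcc
Cox8b, chr7:148086346-148086545, minus strand: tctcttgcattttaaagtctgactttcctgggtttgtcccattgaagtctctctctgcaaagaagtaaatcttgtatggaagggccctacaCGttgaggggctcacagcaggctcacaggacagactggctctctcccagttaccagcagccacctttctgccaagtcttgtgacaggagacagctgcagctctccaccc
Cox7a2, chr9:79607661-79607860, minus strand: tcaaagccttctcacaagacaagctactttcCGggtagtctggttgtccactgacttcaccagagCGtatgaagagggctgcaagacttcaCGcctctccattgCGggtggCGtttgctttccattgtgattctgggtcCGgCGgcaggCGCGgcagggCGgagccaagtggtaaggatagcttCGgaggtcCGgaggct
Cox7a1, chr7:30968990-30969189, plus strand: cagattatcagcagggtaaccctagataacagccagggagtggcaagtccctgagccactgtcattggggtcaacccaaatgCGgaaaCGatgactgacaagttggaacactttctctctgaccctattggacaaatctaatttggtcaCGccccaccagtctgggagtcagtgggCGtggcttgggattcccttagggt

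CpG content separated many of the members with a peak from those without. The promoter CpG ratio, observed over expected in 500 bp on either side of the TSS of the longest transcript, had a median of 0.729 over the 77 members with a peak (0.219 to 1.04) and of 0.463 over the 15 without (0.175 to 0.845). Over all protein-coding genes the medians were 0.764 with a peak and 0.296 without. The 8 tissue-restricted isoforms had a median of 0.322 and none was above 0.468. Most of them lay between 0.2 and 0.6. Of all genes, 10.2% had a peak between 0.2 and 0.4 and 31.8% between 0.4 and 0.6. Both shares lie within the interval for the isoforms (2.24 to 47.1). The 8 other members without a peak had a median of 0.722. Among members with a ratio of at least 0.6, 65 of 70 had a peak (92.9%, interval 84.3 to 96.9), against 7271 of 10353 protein-coding genes (70.2%, interval 69.3 to 71.1). Between 0.4 and 0.6 the shares were 66.7% (8 of 12, interval 39.1 to 86.2) and 31.8%, and between 0.2 and 0.4 they were 44.4% (4 of 9, interval 18.9 to 73.3) and 10.2%. In each of these ranges the interval for members lay above the share of all genes. Between 0.2 and 0.4 this rests on the TSS at which the ratio was taken. Of the members with a peak there, *Atp5j2*, *Atp5o* and *Cox6c* had it nearest to another TSS, with a ratio above 0.4.

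**Figure D3:**
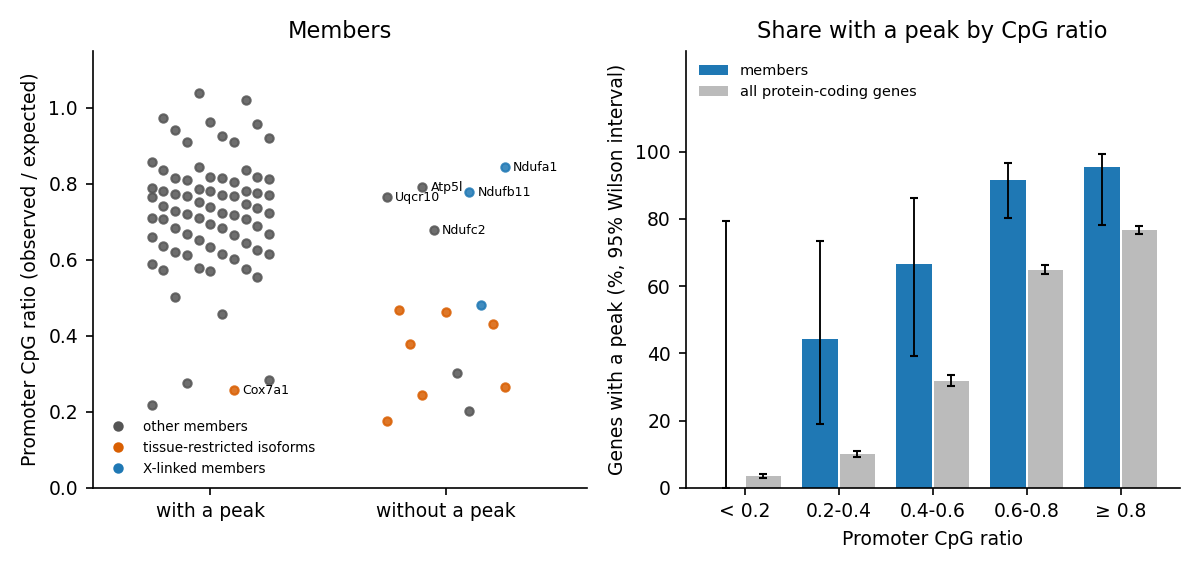
Left, the promoter CpG ratio of each member with and without a peak, with 1 point per record, spread sideways for visibility. Right, the share of genes with a peak in 5 ranges of that ratio for members (blue) and all protein-coding genes (grey), with 95% Wilson intervals. The members lie above all genes in the 4 ranges from 0.2 upward, and the range below 0.2 holds 1 member, *Ndufa4l2*, without a peak.

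Only 4 members with a peak had a ratio under 0.4, namely *Atp5j2*, *Atp5o*, *Cox6c* and *Cox7a1*. In 3 of them the peak was at a TSS other than that of the longest transcript. At the TSS nearest to the peak the ratio was 0.505 for *Atp5j2*, 0.776 for *Atp5o* and 0.80 for *Cox6c*. *Cox7a1* has 1 annotated TSS, and its ratio of 0.258 was the lowest of the 4 at the TSS nearest to the peak.

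The members without a peak outside the tissue-restricted isoforms were few, and most had CpG-rich start sites. They were *Ndufa1* (CpG ratio 0.845), *Atp5l* (0.791), *Ndufb11* (0.778), *Uqcr10* (0.765), *Ndufc2* (0.679) and *Cox7b* (0.482), which encode subunits of 4 complexes, and the records *Atp5l-ps1* and *Ndufb8*, with ratios of 0.302 and 0.202. The peak nearest to the second *Ndufb8* record, at 2619 bp, was the peak at -10 bp of the first. For the others the nearest peak lay closer to the TSS of another gene. That peak was 64372 bp from *Ndufa1* and nearest to *Nkap*, 45261 bp from *Ndufb11* and nearest to *Uba1*, and 7779 bp from *Cox7b* and nearest to *Atp7a*. It was 37970 bp from *Atp5l* and nearest to *Mll1*, 66038 bp from *Uqcr10* and nearest to *Ascc2*, and 28389 bp from *Ndufc2* and nearest to *Alg8*. How reads that match several places were treated is not given in the sources used here, so the 32-base words within 200 bp of each start site were counted in the genome. The share of words that occur once was 59.1% for *Ndufb11*, 65.3% for *Atp5l-ps1*, 85.6% for *Atp5l*, 88.1% for *Cox7b*, 89.4% for *Ndufc2*, 95.4% for *Uqcr10* and 96.7% for *Ndufa1*. It was 100% for all 7 tissue-restricted isoforms without a peak. Members with a peak ranged from 63.4% (*Cox7c*) to 100%, and 8 of these 77 were under 90%, against 5 of the 15 without a peak. The part that repeated sequence had in the missing peaks was not tested.

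*Ndufa1*, *Ndufb11* and *Cox7b* are the only X-linked members, and 0 of 3 had a peak, for which the upper end of the interval is 56.1%. The split by chromosome was made after their values were seen. Over all protein-coding genes, 23.6% of those on X had a peak (220 of 932, interval 21.0 to 26.4) and 40.3% of those on the autosomes (8630 of 21418). With a CpG ratio of at least 0.6 the shares were 54.9% (141 of 257, interval 48.8 to 60.8) and 70.7% (7130 of 10091, interval 69.8 to 71.5). Of the autosomal members that are not tissue-restricted, 76 of 81 had a peak (93.8%, interval 86.4 to 97.3). The sex and the number of X chromosomes of the cells were not given in the sources used here.

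Peaks of members were centered close to the TSS, slightly upstream (1.00 bp downstream with 1 TSS per gene). Taking the nearest peak of each member, the median position was -16.0 bp (quartiles -47.0 and 3.00), and 53 of 77 (68.8%) were upstream. For all protein-coding genes with a peak, the median was -32.5 bp and 75% were upstream. The nearest peak was within 100 bp of the TSS in 92.2% of members and in 77.8% of all protein-coding genes with a peak. A peak covered a TSS in 71 of the 77 members. The 6 members with a nearest peak beyond 100 bp were *Cox4nb* (-103 bp), *Ndufb5* (-103 bp), *Ndufs8* (-155 bp), *Ndufs1* (-204 bp), *Ndufa4* (-342 bp) and *Ndufa13* (-650 bp). The peak of *Ndufs1*, the largest subunit of complex I, was 103 bp from the TSS of *Eef1b2*, which is transcribed the other way.

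**Figure D4:**
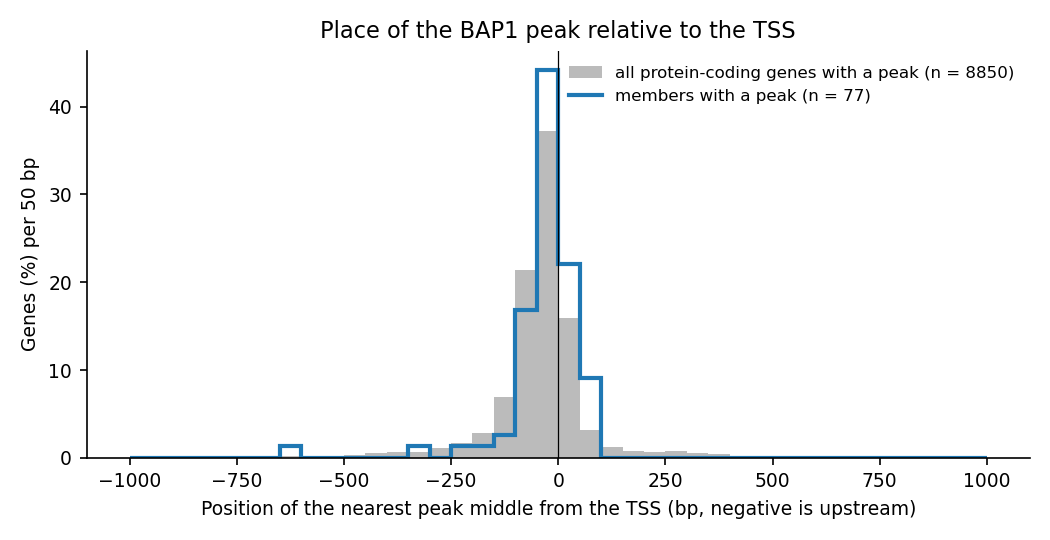
Position of the nearest peak middle relative to the TSS, in bp, in steps of 50 bp, for the 77 members with a peak (blue line) and for the 8850 protein-coding genes with a peak (grey area), each as a percent of its genes. Both are highest just upstream of the TSS, and 92.2% of members and 77.8% of all genes lie within 100 bp.

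Of the 77 members with a peak, 19 had more than 1 (24.7%), which is close to the 25.5% of all protein-coding genes with a peak (2256 of 8850). The members held 98 pairs of a gene and a peak, with 97 different peaks. *Ndufa13* and *Atp5d* had 3 peaks each. Those of *Ndufa13*, also known as a cell death regulator, were at -650, -773 and 921 bp, none at its TSS, and the last was nearer to *Tssk6*. Those of *Atp5d* were at -2, -10 and 785 bp, each from a different annotated TSS of the gene. Their middles spanned 2888 bp, and the last was 50 bp from the TSS of *Dos*. The members with 2 peaks were *Ndufa2*, *Ndufa5*, *Ndufa11*, *Ndufb3*, *Ndufb7*, *Ndufs8*, *Ndufaf2*, *Ndufaf3*, *Sdhc*, *Uqcrh*, *Uqcrq*, *Cox8a*, *Atp5a1*, *Atp5g1*, *Atp5h*, *Atp5j* and *Cox7a2l*. In some of these the second peak lay at a neighbor: at -881 bp from *Ndufa11* it was 40 bp from *Vmac*, at -155 bp from *Ndufaf2* it was 5 bp from *Ercc8*, and at -367 bp from *Uqcrh* it was 25 bp from *Lrrc41*.

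Some members share their start region with another gene. In 26 of the 77 members (33.8%, interval 24.2 to 44.9) a peak also lay within 1 kb of the TSS of another gene that is transcribed away on the opposite strand, and all 26 partners are protein-coding. Over all protein-coding genes with a peak, 26.1% had such a partner of any type (2314 of 8850), a share within the interval for members. A coding partner was present in 21.4% (1894 of 8850), a share below that interval. A peak at such a pair cannot be assigned to either gene. Some partners are themselves mitochondrial or act on the members. *Sdhd* starts 52 bp from *Timm8b*, a chaperone of the mitochondrial intermembrane space, with the peak middle between the start sites, -17 bp from the former and 35 bp from the latter. *Atp5j* has an alternative TSS 93 bp from *Gabpa*, which encodes the DNA-binding subunit of GABP, with a peak 39 bp from the TSS of *Gabpa*. The nearest peak of *Atp5j* lay at another TSS, that of its longest transcript. *Ndufa7* starts 32 bp from *Rps28*, a protein of the cytosolic ribosome, with a peak 1 bp from its own TSS, and *Sdha* starts 29 bp from *Ccdc127*. *Atp5c1* pairs with *Kin* at 83 bp, and *Ndufaf2* with the repair gene *Ercc8* at 150 bp.

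The sequence under the peaks was searched on both strands for 10 short motifs. Those of factors known at respiratory chain genes were GCGCANGCG for NRF1, AAGATGGC for YY1 and CCGGAAG for ETS factors, of which GABPA is a member. The GC box was searched as GGGCGG and the binding site of NF-Y as CCAAT. The cyclic AMP response element (CRE) was searched as TGACGTCA, the letters of THAP11 and ZNF143 as ACTACANNT, and the palindrome TCTCGCGAG under its own name. The E-box had the letters CACGTG, and the box of TATA promoters was searched with the letters TATAAA. A match describes the letters in the window and does not show that the factor binds there. The YY1 letters were in 19 of 97 peaks of members (19.6%, interval 12.9 to 28.6), and in 5.08% of all gene-proximal peaks. The NRF1 letters were in 25 of 97 (25.8%, interval 18.1 to 35.3), and in 16.0% of all gene-proximal peaks. The GC box was less frequent in members, at 48.5% (interval 38.8 to 58.3) against 68.6%. The ETS letters, at 22.7% and 20.2%, the NF-Y letters, at 24.7% and 30.0%, and the other 5 motifs had intervals for members that held the share of all gene-proximal peaks. None of the NRF1, ETS and YY1 letters was present in 40.2% of the peaks of members and in 63.4% of gene-proximal peaks. Within the peaks of members, 1 ETS match and 1 NRF1 match overlapped a GC box.

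In 300 bases of promoter, from 250 before to 50 after the TSS of the longest transcript, the YY1 letters were found in 10.9% of the 92 members and 3.33% of all protein-coding genes, and the NRF1 letters in 19.6% and 8.14%. The promoters of all protein-coding genes with a peak held the YY1 letters in 5.75% and the NRF1 letters in 16.9%. The GC box was in 46.7% of the promoters of members and in 44.5% of all promoters. Among genes with a peak, it was in 49.4% of the promoters of members (38 of 77) and in 68.6% of all promoters. The lower share in members was thus seen in promoters too when only genes with a peak were compared. Among the 15 members without a peak, the NRF1 letters were found only at *Atp5l* and the YY1 letters only at *Ndufa4l2*.

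**Figure D5:**
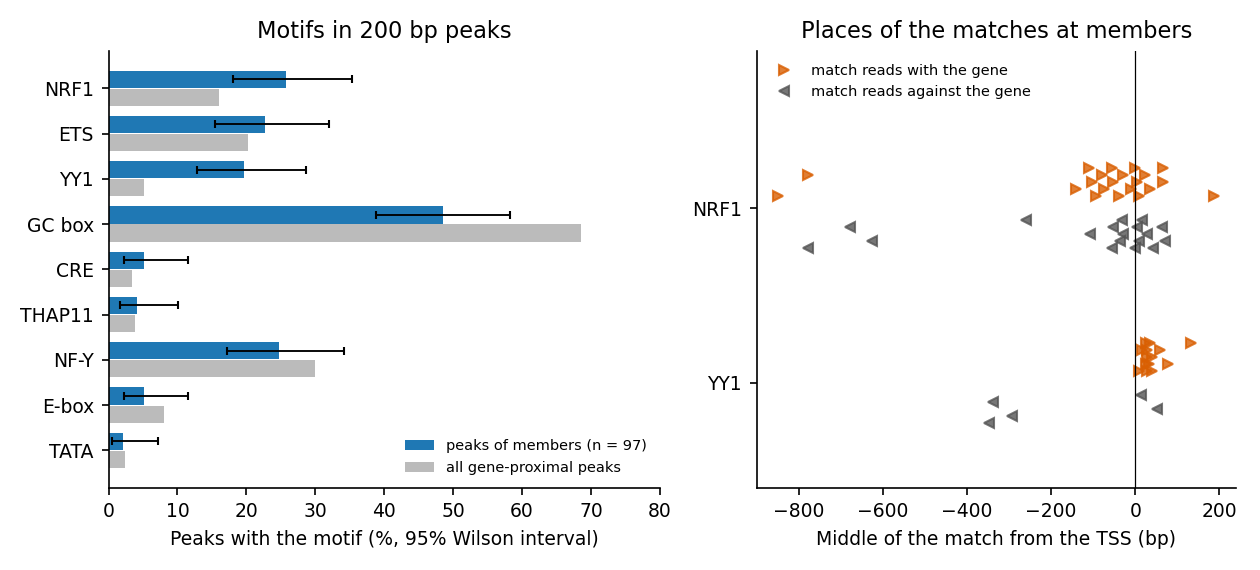
Left, the percent of 200 bp peaks that hold each of 9 named motifs on either strand, for the 97 peaks of members (blue, with 95% Wilson intervals) and for all gene-proximal peaks (grey). Right, the middle of each YY1 and NRF1 match in the peaks of members relative to the TSS, in bp, with right-pointing marks for matches that read with the gene. The YY1 matches cluster just after the TSS and mostly read with the gene, and the NRF1 matches lie on both sides. NRF1 letters that read alike on both strands appear as 2 marks.

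Most of the YY1 matches lay just downstream of the TSS. The 19 matches belong to 18 members, of which 10 are complex I genes, among them *Ndufa2*, *Ndufa3*, *Ndufa9*, *Ndufb8*, *Ndufc1*, *Ndufs4*, *Ndufs6*, *Ndufs7* and *Ndufs8*. Outside complex I they are *Sdhc*, *Uqcrc1*, *Uqcrh*, *Cox8a*, *Atp5f1*, *Atp5j2*, *Atp5o* and *Atp5sl*. In 14 of 19 the match read with the gene, and 13 of these 14 were 8 to 78 bp downstream of the TSS, with a median of 29 bp. The ATG in the match was the annotated start codon in all 14. Over all protein-coding genes with a peak there were 595 matches, of which 411 (69.1%) read with the gene, and in 209 of those (50.9%) the ATG was a start codon. Of these 595, 275 (46.2%) read with the gene 1 to 100 bp downstream, with a median of 28 bp, against 68.4% of the 19 matches at members. The remaining 5 matches, at *Ndufs8*, *Uqcrh* (2 matches), *Cox8a* and *Atp5f1*, read against the gene. A selection from 4 complexes and from *Atp5sl* is printed as 30 bases of mm9 in the direction of the gene, with the match in capitals. Only matches that read with the gene were selected, so the letters in capitals are alike because of the search.
Ndufa3 at 25 bp, chr7:3568986-3569015, plus strand: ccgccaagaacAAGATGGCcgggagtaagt
Ndufa9 at 33 bp, chr6:126799115-126799144, minus strand: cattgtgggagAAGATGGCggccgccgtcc
Ndufb8 at 40 bp, chr19:44629876-44629905, minus strand: cggagaaggtgAAGATGGCtgccgcccggg
Ndufs4 at 39 bp, chr13:115178249-115178278, minus strand: ttgcctacaggAAGATGGCggcggtctcaa
Ndufs7 at 27 bp, chr10:79712207-79712236, plus strand: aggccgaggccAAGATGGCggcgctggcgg
Sdhc at 26 bp, chr1:173080694-173080723, minus strand: ggccggaactcAAGATGGCtgcgttcttgc
Uqcrc1 at 8 bp, chr9:108838718-108838747, plus strand: acggaagttagAAGATGGCggcgtccgcag
Atp5j2 at 78 bp, chr5:145952369-145952398, minus strand: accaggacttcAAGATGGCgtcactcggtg
Atp5sl at 29 bp, chr7:26404448-26404477, plus strand: cgttacctggcAAGATGGCggcgcccagag

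The NRF1 letters were found in the peaks of 24 members. Of these, 10 were complex I genes (*Ndufa5*, *Ndufa6*, *Ndufa8*, *Ndufa11*, *Ndufa13*, *Ndufb4*, *Ndufb7*, *Ndufb10*, *Ndufs5* and *Ndufs6*). A further 7 were among the 14 bound genes of complex V (*Atp5c1*, *Atp5d*, *Atp5g2*, *Atp5g3*, *Atp5h*, *Atp5k* and *Atp5o*). The others were *Ndufaf4*, *Sdha*, *Sdhd*, *Uqcr11*, *Uqcrc1*, *Cox6c* and *Cox7a2l*. Complex IV held 1 NRF1 match (*Cox6c*) and 1 YY1 match (*Cox8a*) among its 12 bound records. Both motifs were present in the peaks of *Ndufs6*, *Uqcrc1* and *Atp5o*, and 39 of the 77 members held at least 1 of them in a peak. *Sdha* had 3 matches within 1 peak, at -54, -11 and 34 bp. Matches from each of complexes II to V and from an assembly factor and a complex I subunit are printed in the same way.
Ndufs5 at -78 bp, chr4:123395509-123395538, minus strand: ggctgcttgctGCGCAGGCGcagacccgct
Ndufaf4 at -109 bp, chr4:24825107-24825136, plus strand: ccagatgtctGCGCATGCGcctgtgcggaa
Sdha at -54 bp, chr13:74487768-74487797, minus strand: gcgtttacaggGCGCAGGCGcaccaccact
Sdha at -11 bp, chr13:74487725-74487754, minus strand: aggggcgtgttGCGCAGGCGcagaatcttc
Sdha at 34 bp, chr13:74487680-74487709, minus strand: cgcgactcggtGCGCAAGCGcagtctgtcg
Sdhd at -75 bp, chr9:50412015-50412044, minus strand: ttcgctggggtGCGCACGCGcggtggcagc
Uqcr11 at 8 bp, chr10:79869553-79869582, minus strand: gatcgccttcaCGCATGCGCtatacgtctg
Cox6c at 23 bp, chr15:35867925-35867954, minus strand: catcgactcttGCGCATGCGtgctgctgga
Atp5g2 at -37 bp, chr15:102501501-102501530, minus strand: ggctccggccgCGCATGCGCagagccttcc

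Peaks were also found at most genes listed as assembling or regulating the respiratory chain or serving mitochondrial DNA. Of all protein-coding genes 39.6% had a peak, and of those with a CpG ratio of at least 0.6 it was 70.2%. The shares of these lists were not taken by CpG ratio. A list of 36 symbols held further assembly factors and related genes such as *Atpif1* and *Lrpprc*. Of the 27 found in the annotation, 25 had a peak (92.6%, interval 76.6 to 97.9). They include *Surf1* (-33 bp), *Sco1* (-26 bp), *Cox10* (-19 bp) and *Cox15* (2 bp), needed to build cytochrome c oxidase, and *Bcs1l* (-35 bp), which inserts the Rieske protein into complex III. *Sco2*, a copper chaperone, had its nearest peak at 1663 bp and *Atpaf1*, an F1 assembly factor, at 27665 bp. Of 15 genes listed as regulators, 14 had a peak (93.3%, interval 70.2 to 98.8). That list also holds *Polrmt*, *Polg*, *Polg2* and *Peo1*, which transcribe or copy mitochondrial DNA. *Nrf1* had its nearest peak at -22 bp, *Gabpa* at -39 bp, *Yy1*, which had 3 peaks, at -163 bp, and *Tfam*, the packaging and transcription factor of mitochondrial DNA, at 175 bp. *Ppargc1a*, which encodes the coactivator PGC-1α, was the exception, with a CpG ratio of 0.176 and its nearest peak 622412 bp away. The mitochondrial chromosome, with 13 protein-coding genes, had 0 peaks in the list, and whether its reads were kept before peaks were called is not given in the sources used here.

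A high share was not particular to the respiratory chain. The genes of mitochondrial ribosomal proteins had a peak in 75 of 77 (97.4%, interval 91.0 to 99.3). Those taken for the proteasome subunits had one in 47 of 52 (90.4%, interval 79.4 to 95.8). The latter were all symbols from Psma to Psmg with a digit, whether or not each encodes a subunit. No tissue-restricted form was taken out of either set. The first of these intervals lay above that of all members (74.8 to 89.9) and the second overlapped it, and both overlapped that of the members without tissue-restricted isoforms. With a CpG ratio of at least 0.6 the shares were 98.5% and 100%, against 92.9% for the members. The expression of these genes in Ba/F3 was not measured in the data used here, so a peak cannot be set beside a transcript level.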

How the data were processed

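Anti-BAP1 and anti-FLAG ChIP-Seq libraries of Ba/F3 cells were sequenced in paired-end mode. The authors mapped the reads to mm9 with Bowtie 1.0.0 and called peaks against input DNA with MACS 1.4.2, as named in the submitters' processing notes. They deposited 1 list of peak starts and ends in bp, other values than these being absent, for both samples together. The threshold and the rule that combined the samples are not given in the sources used here, and how they bear on the shares was not tested.

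The middle of each 200 bp peak was compared with all TSSs of GENCODE release M1 (NCBIM37, the same build), and a gene had a peak when one lay within 1 kb. No test was made, since the list has no replicates and genes are not replicates. CpG ratios, motifs and the uniqueness of 32-base words were read from the genome sequence. The genes named were all members without a peak, with more than 1 peak, with a nearest peak beyond 500 bp, with the NRF1 or YY1 letters, all isoform pairs, all complex II subunits and the members with the nearest and farthest peaks of each complex. The further members named, such as the core subunits of complex I and the F1 head, were chosen with their values known, and some items are not reported here. The members and lists were chosen with earlier results of these data known, and the count of unique words was added after seeing the peaks. The list has 0 columns left without a sample. Distances and motif counts were tested on simulated data. Scripts ran in Python 3.11.15 and used numpy 2.4.6, statsmodels 0.14.6, matplotlib 3.10.9 and bedtools 2.31.1.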

Additional observations from a re-analysis of the deposited data

How the results depend on the processing

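Windows of 500 bp and 2 kb, the edge of the peak, 1 TSS per gene, protein-coding transcripts and merged peaks left between 75 and 77 of the 92 members with a peak. With 1 TSS per gene *Cox6c* and *Atp5o* were lost, and with 500 bp *Ndufa13*. Of 88 alternative values, 78 stayed within the 95% interval of the reported share or median or were counts close to the reported one and 10 moved further. The margin set for counts was wide and took no account of the number of genes counted, so counts could hardly fall outside it. The median peak position turned from upstream to 1.00 bp downstream with 1 TSS per gene. The median CpG ratio of members with a peak became 0.813 over 250 bp on either side. In the middle 100 bp of the peaks of members, the ETS letters were in 15.5%, YY1 in 9.28% (2.14% of all gene-proximal peaks), the GC box in 30.9%, and THAP11 and TCTCGCGAG in 1.03% each. In promoters in place of peaks, the YY1 letters were in 10.9%, NF-Y in 38% and TATA in 9.78%. The GC box was in 46.7% of the promoters of members and in 44.5% of all promoters, with or without a peak. Among promoters of genes with a peak it stayed less frequent in members (49.4% and 68.6%). Shorter or shifted windows hold other sequence by construction. The versions without *Cox4nb* and *Atp5l-ps1* and with autosomal members only were chosen after seeing the data. No paired analysis was possible because the list holds both samples together and no result comes from a test. The unknown depth and threshold limit what a missing peak shows.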

Other observations

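The order of the deposited list has no stated meaning, and the peaks of nuclear respiratory chain genes stood early in it. The 97 peaks had a median place of 3414 among 13164, and 48 of them (49.5%) were in the first 25% of the list and 0 in the last 25%. All 10073 gene-proximal peaks had a median place of 5087, with 32.4% in the first and 4.42% in the last 25%. The earliest of the members were the peaks of *Cox6a1* at place 99, *Ndufa3* at 229 and *Atp5j* at 281. In 16 of the 19 members with more than 1 peak, the peak nearest to the TSS stood before the others. The same share was not taken over all protein-coding genes, so it cannot be called particular to the members.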
